A study of Homo sapiens with 27 samples.

Results

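Broad domains of acetylated H2A.Z in vehicle-treated HL-60 cells were taken as the peaks of the DMSO acH2A.Z list on chromosomes 1 to 22 whose region was at least 4000 bp wide. There were 1297 of them among 16489 peaks on these chromosomes (17007 in the whole list). The domains were thus chosen by a measured value, the peak width in the DMSO library, and their widths and tag counts are given only as a description. The domains made up 7.87% of the peaks, 19.4% of the bases in peaks (6.57 Mb) and 28.9% of the tags in peaks. HL-60 is an established human promyelocytic leukaemia line, grown here in DMEM with serum and studied with 27 libraries, each the only one of its group. Chromatin immunoprecipitation (ChIP) with antibodies to H2A.Z or acetylated H2A.Z (acH2A.Z) used cells under DMSO, the vehicle, cells under DRB at 100 µM, cells under actinomycin D (ActD) at 0.8 µM, and cells with the siRNAs labelled siNTC (a control) and siMyc (a knockdown). Nascent RNA was captured from DMSO, DRB and ActD cells and from untreated cells, total RNA came from untreated cells, and RNA immunoprecipitation (RIP) with antibodies to H2A.Z, acH2A.Z and Tip60 was done in untreated cells. The sources used here do not give treatment times, and 6 IgG libraries were not analysed here. With 1 library per group there was no spread between replicates to compare a difference with, so no test was run and each difference below is one between libraries. Brackets hold exact 95% binomial intervals, or order-statistic intervals for medians, which cover counting error only.

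H2A.Z is a variant of histone H2A that is placed into nucleosomes on either side of active promoters by the SRCAP and TIP60 complexes. TIP60, whose catalytic subunit is encoded by KAT5, also acetylates histone tails, and H2A.Z acetylated on its N-terminal tail is known as a mark of transcribed genes. DRB inhibits the kinase that releases paused RNA polymerase II into elongation, whereas ActD intercalates into DNA and blocks transcription itself. At an active gene the acetylated form is usually found on the few nucleosomes around the start site.

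The promoter sequences of 6 domain genes show the kind of DNA these domains lie over. They are the 250 bases before the annotated start, written 5′ to 3′ in the direction of the gene (RefSeq, GRCh38.p14), with each CG dinucleotide in capitals. H1-2 stands for the histone genes, CDKN1B (the cell cycle inhibitor p27) for a domain that was among the widest, and HNRNPU for the splicing factors. PTMA (prothymosin alpha) was the domain gene with the highest nascent RNA level in DMSO. GFI1, a myeloid repressor, lies in a domain without any siMyc acH2A.Z peak, and ETF1, the translation release factor, in a domain without any DRB acH2A.Z peak.
H1-2, chr6:26056471-26056720, - strand: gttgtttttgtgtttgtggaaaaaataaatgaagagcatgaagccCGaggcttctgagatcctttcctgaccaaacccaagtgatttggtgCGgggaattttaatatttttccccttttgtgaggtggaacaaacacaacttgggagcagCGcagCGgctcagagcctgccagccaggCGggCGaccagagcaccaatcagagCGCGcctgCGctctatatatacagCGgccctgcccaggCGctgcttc
CDKN1B, chr12:12717118-12717367, + strand: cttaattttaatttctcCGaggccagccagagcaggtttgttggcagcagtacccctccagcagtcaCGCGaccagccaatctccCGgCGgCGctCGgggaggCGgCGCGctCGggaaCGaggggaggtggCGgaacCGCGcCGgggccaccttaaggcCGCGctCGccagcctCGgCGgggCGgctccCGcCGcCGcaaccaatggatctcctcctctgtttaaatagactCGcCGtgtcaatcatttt
HNRNPU, chr1:244864544-244864793, - strand: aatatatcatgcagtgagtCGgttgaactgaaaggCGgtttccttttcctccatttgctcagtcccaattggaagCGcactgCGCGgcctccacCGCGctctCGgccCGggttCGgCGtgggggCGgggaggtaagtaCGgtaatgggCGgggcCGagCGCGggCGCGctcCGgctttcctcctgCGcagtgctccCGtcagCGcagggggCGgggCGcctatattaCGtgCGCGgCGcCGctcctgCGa
PTMA, chr2:231708275-231708524, + strand: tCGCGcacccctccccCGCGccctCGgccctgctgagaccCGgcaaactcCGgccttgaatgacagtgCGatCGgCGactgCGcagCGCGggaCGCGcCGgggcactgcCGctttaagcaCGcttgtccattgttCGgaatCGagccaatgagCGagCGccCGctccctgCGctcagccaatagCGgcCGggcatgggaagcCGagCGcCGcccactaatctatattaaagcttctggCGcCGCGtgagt
GFI1, chr1:92486926-92487175, - strand: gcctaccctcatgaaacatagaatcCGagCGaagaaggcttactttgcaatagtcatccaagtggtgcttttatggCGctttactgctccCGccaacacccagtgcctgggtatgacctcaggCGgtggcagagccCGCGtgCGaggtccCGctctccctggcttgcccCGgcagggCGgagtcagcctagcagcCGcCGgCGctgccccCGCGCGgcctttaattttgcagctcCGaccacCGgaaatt
ETF1, chr5:138543237-138543486, - strand: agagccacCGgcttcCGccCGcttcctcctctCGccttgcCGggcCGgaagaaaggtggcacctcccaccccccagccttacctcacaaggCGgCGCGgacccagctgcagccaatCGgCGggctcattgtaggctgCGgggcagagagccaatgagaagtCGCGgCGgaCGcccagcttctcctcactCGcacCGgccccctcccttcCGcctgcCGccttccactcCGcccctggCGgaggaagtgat
The H1-2 promoter held 11 CG dinucleotides and an observed to expected CpG ratio of 0.642, against 32 and 1.17 in PTMA, 31 and 1.15 in HNRNPU, and 27 and 1.04 in CDKN1B. GFI1 had 19 and a ratio of 0.82, and ETF1 22 and 0.763. CCAAT was found in all of these except GFI1, and GGGCGG in all except H1-2.

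Over all 1664 genes with a listed start in a domain, the median promoter was 64.7% GC with 27 CG dinucleotides, against 58.3% and 14 over the 26246 promoters of the table. Against promoters in peaks of 2000 bp to under 4000 bp, which had 65.3% and 27, composition differed little. The share with an observed to expected ratio of at least 0.6 was 90.1%, against 91.1% in that narrower class and 49.1% overall. These values used 300 bases per promoter, 250 before the start and 50 from it on, unlike the 250 printed above. Motifs were searched on both strands of the 300 bases by their exact letters. CCAAT, the letters of the NF-Y box, was in 40.5% of domain promoters (36.6% in the 2000 bp to under 4000 bp class, 35.3% of all promoters). GGGCGG, a GC box, was in 70.1% (71.5% and 44.6%). The ETS-type letters CCGGAAG were in 19.5%, below the 27.3% of the narrower class and above the 10.9% of all promoters. TATAAA was in 6.85% of domain promoters, 3.83% of those in the narrower class and 12.0% of all. The E-box CACGTG was in 9.62%, 11.2% and 7.27% of these sets, and the AP-1 letters TGACTCA in 2.16%, 2.41% and 4.92%. A match describes letters in this window and not a bound site.

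Of 1461 miRNA hairpins on these chromosomes in the RefSeq table, 39 lay inside a domain. Mature sequences of 6 of them are shown because they belong to well-known families carried by host genes or clusters in the domains, with the seed (bases 2 to 8) in capitals.
hsa-miR-191-5p: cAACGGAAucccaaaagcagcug
hsa-miR-15b-5p: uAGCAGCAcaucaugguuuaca
hsa-miR-16-5p: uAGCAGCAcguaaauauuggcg
hsa-let-7i-5p: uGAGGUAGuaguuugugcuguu
hsa-miR-17-5p: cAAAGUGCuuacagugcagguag
hsa-miR-18a-5p: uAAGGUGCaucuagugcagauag
hsa-miR-15b-5p and hsa-miR-16-5p share the seed AGCAGCA. Their hairpins, MIR15B and MIR16-2, lie near one end of a 6923 bp domain over the starts of IFT80 and SMC4 (chr3:160397911-160404834). That domain was covered to 100.0% by ActD acH2A.Z peaks, 40.7% by DRB, 20.3% by siNTC and 0.0% by siMyc peaks. MIR17 and MIR18A, with the seeds AAAGUGC and AAGGUGC, lie inside the 4359 bp domain over MIR17HG, the host RNA of their cluster (chr13:91346560-91350919), which was covered to 87.6% in DRB, 96.3% in ActD, 73.3% in siNTC and 30.7% in siMyc. MIR17HG itself held 87 expected counts of nascent RNA in DMSO, 3 in DRB and 0 in ActD. MIRLET7I (seed GAGGUAG) lay in a 4040 bp domain covered to 83.2%, 100.0%, 77.2% and 25.1% by the 4 lists in the same order, and MIR191 (seed AACGGAA) in a 5716 bp domain covered to 63.2%, 59.5%, 65.9% and 26.1%.

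The domains had a median width of 4660 bp (quartiles 4278 and 5393) and reached 18880 bp. At least 5000 bp was reached by 475, at least 6000 bp by 189, at least 8000 bp by 40 and at least 10000 bp by 9. The widest covered the histone genes H2AC11, H2BC11, H2BC12 and H4C9 (chr6:27129431-27148311, 18880 bp), and the next lay over H2AC15, H2BC15 and H4C12 (chr6:27829231-27842887, 13656 bp). DLEU1 and DLEU2, a divergent pair of long non-coding RNA genes, shared one of 13417 bp, and CDKN1B one of 13032 bp with APOLD1. A domain inside NEAT1, the RNA that scaffolds paraspeckles, measured 12834 bp and held no listed start. The chromatin remodeller gene CHD2 had one of 10489 bp, and IGF2BP3, an RNA-binding protein of fetal and leukaemic cells, one of 10725 bp. By deposited tag count the highest were over RPRD2 (7681.1 tags in 5722 bp), LINC00938 (7486.8 in 9261 bp) and BCLAF1 (7018.0 in 9705 bp). Just inside the width limit lay the domains of C5orf34 (4000 bp), UBE2N and MYO1G (4002 bp each), and just outside it the peaks at MTHFD1 (3998 bp), at ENOPH1 and HNRNPDL (3997 bp), and 1 on chromosome 16 outside any gene (3997 bp).

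Per kilobase the domains held a median of 252.4 tags, against 174.5 in peaks of 2000 bp to under 4000 bp and 40.68 in peaks under 1000 bp, and their control held 1.65, 1.396 and 0.8 tags per kb in the same classes. By chromosome the broad share of peaks ran from 5.01% on chromosome 19 (50 domains) to 11.4% on chromosome 13 (51) and 11.0% on chromosome 4 (80).

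Broad domains were nearly all at genes. A listed gene start lay inside 1102 of the 1297 (85.0% [82.9, 86.9]), against 74.4% of peaks of 2000 bp to under 4000 bp, 26.6% of 1000 bp to under 2000 bp and 7.12% under 1000 bp. Starts on both strands were inside 492 domains (37.9%), against 22.7% in the 2000 bp to under 4000 bp class. A wider window has more room for a start, and this was not adjusted for. The starts belonged to 1 gene in 579 domains, to 2 genes in 477 and to 3 or more in 46. Of the 195 domains with no listed start, 180 overlapped the span of a gene and 15 lay outside any. The start table is incomplete, so a missing start does not show that none is there.

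Genes in the domains had more nascent RNA than genes in narrower peaks. The median deposited TPM in nascent RNA of DMSO cells was 21.0 [19.5, 22.7] over 1294 protein-coding genes with a start in a domain. It was 11.1 [10.5, 11.6] in peaks of 2000 bp to under 4000 bp, 4.08 in 1000 bp to under 2000 bp, 1.55 under 1000 bp and 0.0 where the start was in no peak. Nascent RNA of untreated cells had the same order at lower values, with medians of 2.29, 1.67, 0.88, 0.29 and 0.02 TPM. Total RNA of untreated cells did too, with medians of 3.81, 2.72, 1.36, 0.44 and 0.0 TPM. Sorted into 10 equal groups by nascent TPM among protein-coding genes above 0, the lowest group had a domain at 1.92% of genes and the highest at 31.2% [28.3, 34.3], with a higher share at every step. The share in peaks of 2000 bp to under 4000 bp stopped changing much above the sixth group, where it was 63.2%, and was 60.3% in the highest. Long non-coding RNA genes in domains were at a median of 0.12 TPM, with 128 of 223 above 0. Input DNA counts per kb of gene span, from a shallow library of 455948 counts, were 0.519 in domain genes and 0.475 in the 2000 bp to under 4000 bp class. Within the domains, width and the nascent TPM of the gene were only weakly related (Spearman's rho of 0.108 over 531 domains holding the start of 1 gene past the filter), and tags per kb somewhat more (0.24). These points share the same 2 libraries.

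**Figure D1:**
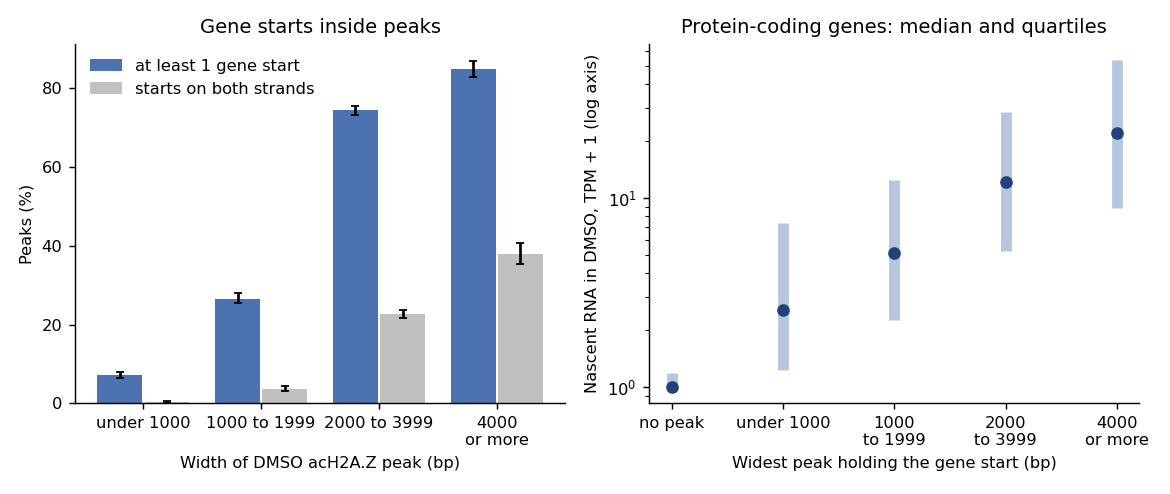
Left, the share of DMSO acH2A.Z peaks (y, %) of each width class (x, bp) that hold at least 1 gene start (blue) or starts on both strands (grey), with exact 95% binomial intervals as bars. Right, deposited nascent TPM plus 1 in DMSO (y, log axis) of protein-coding genes by the widest peak at their start, with the median as a point and the quartiles as a band. Domains of 4000 bp or more stand highest in each panel, at 85.0% and 37.9% of peaks and a median of 21.0 TPM.

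Gene lists differed widely in how often their members lay in a domain. They also differed in nascent level, which was not adjusted for. The median TPM in DMSO was 159 over the splicing factor list and 330 over the cytosolic ribosomal protein genes. Of protein-coding genes in the highest of the 10 groups by TPM, 31.2% had a domain. Of all 18274 genes of the tables with a listed start, 1517 (8.3%) had it in a domain, and of the 8504 past the expression filter used for ratios, 1306 (15.4%) did. The SR proteins and splicing factors, which bind pre-mRNA and set splice sites, had 19 of 27 members in one (70.4% [49.8, 86.2]), among them HNRNPA2B1 (7549 bp), TRA2B (7543 bp), HNRNPK (7397 bp), HNRNPU (6350 bp), SRSF3 and SON. Replication-dependent histone genes had 24 of 51 (47.1% [32.9, 61.5]) in 13 domains with a median width of 7365 bp. Since neighbouring histone genes shared domains, these 24 are not independent. Chromatin modifiers had 17 of 42, with CHD2 (10489 bp), KMT2E (9026 bp), KMT2D (6378 bp), EP300, EZH2 and TET2. The H2A.Z, SRCAP and TIP60 list had 8 of 22, and these included both genes for H2A.Z itself, H2AZ1 (7324 bp) and H2AZ2 (5355 bp).

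Other lists had smaller shares. Housekeeping genes had 7 of 22, snoRNA host genes 6 of 20 (GAS5, SNHG1 and ZFAS1 among them), immediate early genes 8 of 28, G2 and mitosis genes 9 of 34, MYC targets in growth 9 of 36, S-phase genes 11 of 49, pausing and elongation factors 6 of 28, nuclear long non-coding RNAs 3 of 10 and apoptosis regulators 3 of 20. Close to the share of all genes with a start were the cytosolic ribosomal protein genes at 7 of 58, myeloid transcription factors at 3 of 29 (GFI1, ZEB2 and ETV6), myeloid receptors at 2 of 17 (CXCR4 and PTPN6) and NF-kappa-B genes at 1 of 17 (REL). None of 10 promyelocyte granule genes was in one, with an interval reaching 30.8%, although several were strongly transcribed. PRTN3 (proteinase 3) was at 495 nascent TPM with no peak at its start, and CTSG (cathepsin G) at 514 TPM with a peak of 2000 bp to under 4000 bp. The lymphoid, erythroid, and epithelial and fibroblast markers had 0 of 8, 0 of 3 and 0 of 4. Marker levels matched the cell line label. Of 8 promyelocytic genes 7 were above 0 in DMSO, summing to 1610 TPM with ELANE listed at 0.0, and of 13 markers of other cells 3 were above 0, summing to 1.24 TPM. As these are bulk samples, fewer cells of a type and less RNA per cell cannot be told apart.

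**Figure D2:**
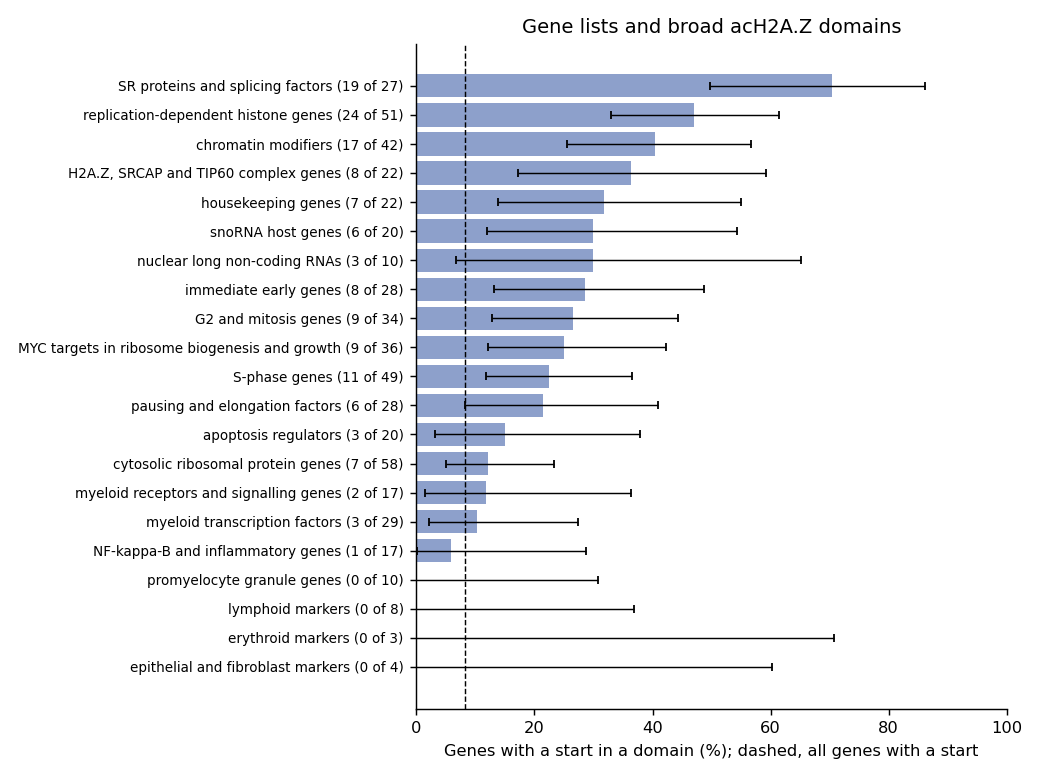
Percentage of the members of each gene list with a start in a broad domain (x), by list (y, with the counts), with exact 95% binomial intervals and a dashed line at 8.3% for all genes with a start. Splicing factors (19 of 27) and histone genes (24 of 51) stand highest and the marker lists of other lineages at 0.

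The peak lists that the domains were compared with differed in size and scaling, and this bears on every share of coverage below. On chromosomes 1 to 22 the acH2A.Z lists held 16489 peaks in DMSO, 28552 in DRB, 30349 in ActD, 16908 in siNTC and 14264 in siMyc, over 33.9, 48.5, 48.0, 23.6 and 12.4 Mb. If the deposited tag counts are per 10000000 tags, as the software's default has it, peaks held 64.0%, 52.6%, 52.1%, 39.3% and 3.5% of tags in the same order. The tag numbers at which libraries were set against their control then came to 3520000, 5360000, 19700000, 18700000 and 12500000, lowest for DMSO. The numbers of peaks of at least 4000 bp were 1297, 1134, 2333, 106 and 39. The siMyc list thus had far fewer tags in peaks than the siNTC list, and the part of these differences in the coverage of the domains was not tested. No RNA library of the siRNA cells was analysed here, so the knockdown was not checked.

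Domain coverage was nearly complete in ActD, lower in DRB, lower still in siNTC and lowest in siMyc. A domain counted as covered where at least 50% of its bases lay in peaks of the other list. In ActD 1208 domains were covered (93.1% [91.6, 94.5]), against 76.5% of all DMSO peaks. DRB covered 1104 (85.1% [83.1, 87.0]), against 90.3%. In siNTC it was 601 (46.3% [43.6, 49.1]), against 51.6%, and in siMyc 141 (10.9% [9.23, 12.7]), against 18.3%. At this 50% limit the domains were therefore covered more often than all peaks only in ActD. By share of bases, ActD covered 89.0% of the domains against 78.0% over all peaks, and DRB 69.9% against 78.9%. For siNTC this was 46.7% against 49.9%, and for siMyc 23.7% against 23.6%. The median share of a domain's bases in peaks was 99.3% in ActD, 73.2% in DRB, 48.4% in siNTC and 21.1% in siMyc. Over all DMSO acH2A.Z peaks these medians were 90.9%, 92.2%, 51.4% and 0.0%. At least 99% of bases was reached by 664 domains in ActD (51.2%, against 35.7% of all peaks) and 77 in DRB (5.94%, against 38.6%). In siNTC it was 3 (0.231%, against 6.6%) and in siMyc 1 (0.0771%, against 2.33%). Coverage was 0% for 10 domains in ActD (0.771%, against 15.0%) and 9 in DRB (0.694%, against 4.79%). For siNTC it was 0% in 46 (3.55%, against 27.7%) and for siMyc in 279 (21.5%, against 52.1%).

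These shares rest on lists of unequal length. When each list was limited to its 14264 peaks of highest score, the length of the shortest, the covered share became 51.0% in ActD, 46.0% in DRB, 40.3% in siNTC and 10.9% in siMyc. The gap between DRB and siNTC, 85.1% against 46.3% with all peaks, was then mostly gone. The siMyc list is the shortest, so it was not cut and its 10.9% could not change. Equal numbers of peaks do not make the bases or tags in peaks equal, so the low siMyc share was not tested by this limit. Score ranks were taken within each list.

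**Figure D3:**
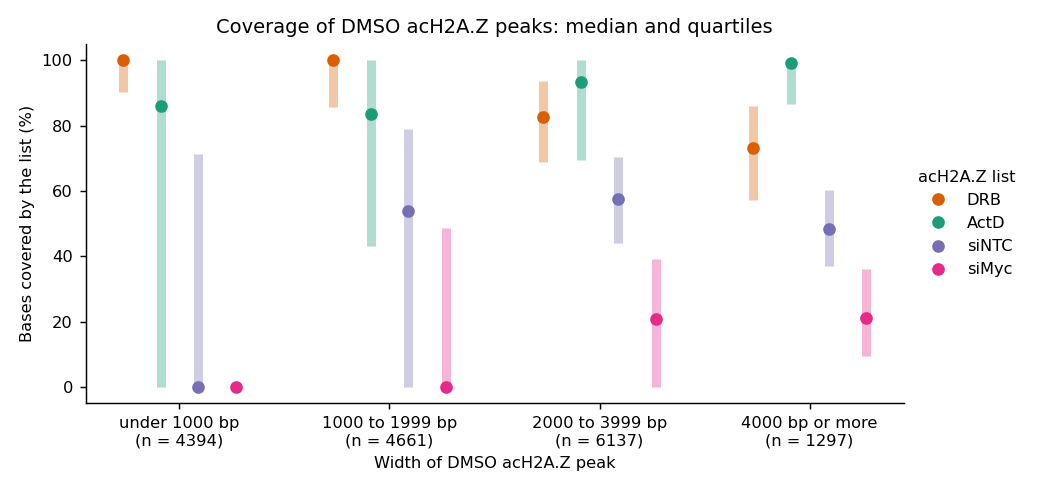
Share of the bases of each DMSO acH2A.Z peak (y, %) that lies in DRB, ActD, siNTC or siMyc acH2A.Z peaks, by width class of the DMSO peak (x, with the number of peaks), with the median as a point and the quartiles as a band. From the narrowest to the widest class the DRB median goes from 100.0% to 73.2%, whereas in ActD the widest class has the highest median, 99.3%.

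The way the other lists met a domain also differed. The widest single stretch in peaks within a domain had a median of 4330 bp in ActD, 3355 bp in DRB, 2157 bp in siNTC and 887 bp in siMyc. In ActD the peaks touching a domain were together wider than the domain in 856 cases (66.0%), against 157 (12.1%) in DRB, 14 in siNTC and 6 in siMyc. Counting which lists covered at least 50%, 462 domains were covered in DRB and ActD only, 442 in DRB, ActD and siNTC, 142 in ActD only, 91 in all 4 lists and 23 in none. These combinations were not counted over all peaks. A correlation across the 1297 domains, which share the DMSO list, is given as a description. DRB coverage went with siNTC coverage (Spearman's rho 0.367) and siMyc coverage (0.386) more than with ActD coverage (0.155), and ActD coverage was unrelated to siNTC coverage (-0.0307).

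Few domains had no peak at all in DRB or ActD. In DRB the widest without any peak lay inside IRF2BP2, a transcriptional corepressor gene (chr1:234602576-234609145), which ActD covered to 92.2% and siNTC to 0.0%. The ETF1 domain (chr5:138541026-138545859), whose promoter is printed above, was at 0.0% in DRB but 99% in ActD, 44.5% in siNTC and 13.0% in siMyc. LINC01089 and PLPPR3 were also at 0.0% in DRB, with 51.5% and 33.0% in ActD. In ActD the widest without a peak were at ZNF580 and ZNF581 and at PLEKHJ1 and SF3A2, both pairs on chromosome 19, then at NOP14-AS1 and SLC75A1, PARVB, and TRIB3. DRB covered these to 66.0%, 29.5%, 74.3%, 91.5% and 89.2%. For siNTC the domains at LINC01619 (9033 bp), PPP6R1 (7902 bp) and HMGCS1 (6625 bp) had no peak, and for siMyc those at IGF2BP3 (10725 bp), TGIF1 (9903 bp), TSPOAP1-AS1, PFN1 and GFI1 (8003 bp) had none. ActD covered the GFI1 domain to 100.0% and the IGF2BP3 domain to 100.0%.

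ActD coverage followed the tag density of the domain in DMSO. With the domains in 4 equal groups by tags per kb, at least 50% was covered by ActD peaks in 76.3%, 96.9%, 99.4% and 100.0% from the lowest to the highest group. The DRB shares were 80.3%, 83.3%, 88.3% and 88.6%, and those of siNTC 45.5%, 48.1%, 46.9% and 44.8%. On chromosome 19, where the median density was 131 tags per kb, ActD covered 31 of 50 domains (62.0%) and DRB 32. GC content of the promoter moved with the same values. Over 1095 domains with a promoter sequence, ActD covered 97.5% in the lowest of 3 equal groups by GC, 93.2% in the middle one and 89.3% in the highest, and siMyc 17.0%, 7.95% and 4.38%, while siNTC covered 42.5%, 43.3% and 51.5%. Median tag density was 284, 262 and 220 tags per kb over the same groups, and the part of density in the GC pattern was not tested.

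Within a domain, the bases that DRB and siNTC peaks left out were mostly downstream of the start. This was measured in the 579 domains holding the start of 1 gene, which extended a median of 1933 bp upstream and 2742 bp downstream of it, further downstream in 411 (71.0%). Within 500 bp of the start DRB peaks covered 93.0% of domain bases, ActD 87.5%, siNTC 86.2% and siMyc 25.5%. Further upstream the shares were 82.3%, 88.2%, 48.7% and 36.8%. From 500 to 2000 bp downstream they were 61.9%, 91.0%, 41.8% and 15.5%, and from 2000 to 4000 bp 36.2%, 91.0%, 12.6% and 10.4%. ActD peaks thus covered the gene side as fully as the upstream side, while DRB and siNTC coverage dropped along it. The siMyc list was highest upstream, at 46.9% from 1000 to 750 bp before the start, and stood at 20.5% in the first 250 bp after it.

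The same drop was seen where each bin holds the same domains. In 175 domains reaching from 1000 bp upstream to 3000 bp downstream, DRB coverage went from 90.9% (1000 to 500 bp upstream) to 43.4% (2000 to 3000 bp downstream) and siNTC from 63.4% to 13.3%. ActD went from 91.1% to 95.6% there. Of 436 domains reaching 1000 bp upstream and 2000 bp downstream, the upstream 1000 bp was covered to at least 50%, and the stretch from 1000 to 2000 bp downstream was not, in 203 in DRB (46.6%), 280 in siNTC (64.2%), 160 in siMyc (36.7%) and 20 in ActD (4.59%). The reverse was seen in 5, 17, 32 and 18. Over the same 436 domains, coverage upstream less coverage downstream was 43.8 percentage points in DRB, 53.4 in siNTC, 24.7 in siMyc and -1.47 in ActD. With 14264 peaks from each list these became 27.9, 50.3, 24.7 and -0.439, the DRB value being smaller by more than 1.5 times with the same direction. The siMyc list holds just 14264 peaks, so its value could not change. With only peaks of a fold of at least 8 over control, siMyc came to 4.77 and siNTC to 34.8. The upstream less downstream contrast was not among the planned results, and these alternatives to it were chosen after seeing the data.

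**Figure D4:**
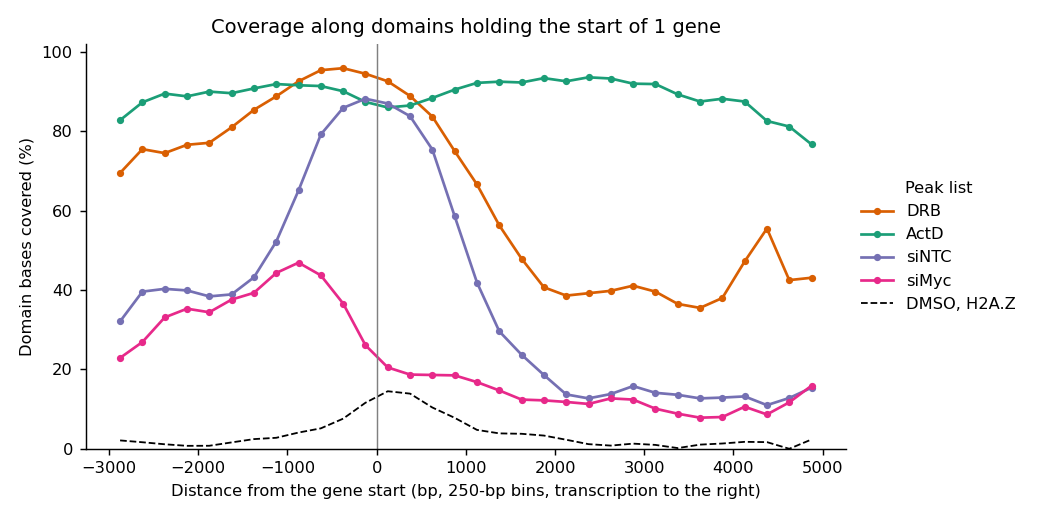
Share of domain bases in peaks of each list (y, %) in 250 bp bins by distance from the gene start (x, bp, transcription to the right) over domains holding the start of 1 gene, between 26 and 578 domains per bin. DRB and siNTC coverage is 92.6% and 87.0% just after the start and stands at 38.6% and 13.7% just past 2000 bp, whereas ActD is never under 76.7%, and the DMSO list of the H2A.Z antibody (dashed) reaches 14.5% just after the start.

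The drop was not confined to broad domains. In 1189 peaks of 2000 bp to under 4000 bp with the start of 1 gene that reached 1000 bp upstream and 1500 bp downstream, DRB coverage from 1000 to 1500 bp downstream was 47.3%, ActD 87.7% and siNTC 17.3%. In the 496 domains of the same reach it was 60.1%, 93.0% and 34.1%. That bin lies nearer the edge of a narrower peak.

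Peaks called with the H2A.Z antibody were narrow, none reaching 4000 bp, and numbered 1254 in DMSO, 4130 in DRB, 17733 in ActD, 6890 in siNTC and 11076 in siMyc. Each of these lists touched a larger share of the domains than of all DMSO acH2A.Z peaks. The DMSO H2A.Z list touched 375 domains (28.9%), against 6.63% of all DMSO acH2A.Z peaks. The DRB list touched 631 (48.7%, against 17.1%), the ActD list 310 (23.9%, against 7.27%), the siNTC list 288 (22.2%, against 11.3%) and the siMyc list 474 (36.5%, against 20.9%). A wide region is touched more easily, so the share of bases is the fairer measure. DMSO H2A.Z peaks covered 5.05% of domain bases against 2.48% over all peaks, DRB 9.01% against 6.17% and ActD 3.05% against 1.99%, while siNTC covered 3.1% against 3.29% and siMyc 5.66% against 6.71%. The RIP lists, whose peaks lie where RNA was recovered in untreated cells, touched 390 domains for H2A.Z (30.1%, against 12.3%), 614 for acH2A.Z (47.3%, against 33.0%) and 691 for Tip60 (53.3%, against 30.4%). By bases they covered 3.87%, 7.72% and 8.48% of the domains, against 3.0%, 9.72% and 8.83% over all peaks.

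Some domains lay close together. With gaps under 50000 bp, 218 of the 1297 fell into runs, and 15 runs held 3 or more. The same was not computed for narrower peaks. The longest run had 6 domains on chromosome 5 (chr5:42987928-43124579), over LOC105374746, ANXA2R-OT1, ANXA2R, LOC100506639 and ZNF131. The 6 measured 5139 to 9525 bp with 2294.6 to 5564.8 tags each, and ActD covered each to at least 94.4% and DRB to at least 71.5%. A run of 5 on chromosome 6 (27806056 to 27897087) held histone genes from H2AC13 to H2BC17, and a second of 5 (26120102 to 26207674) those from H2AC6 to H4C5. Another run of 5 on chromosome 5 (181188253 to 181262657) covered TRIM7, TRIM41, RACK1 and TRIM52.

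Nascent RNA of domain genes was compared between DRB or ActD and DMSO as log2 ratios of CPM (expected counts scaled by the library total) with 1 CPM added, and called higher or lower at 2-fold. The libraries held 14426368 expected counts in DMSO, 14339264 in DRB and 12600067 in ActD. Over all 12121 genes past the filter the median was -1.19 in DRB and -1.01 in ActD, and genes of mitochondria, ribosomal RNA and RNA polymerase III took 47.7% of counts in DMSO, 68.9% in DRB and 60.3% in ActD. In DRB 47 of 1306 domain genes were higher (3.6%, against 9.1% of all genes) and 776 lower (59.4%, against 54.7%), with a median of -1.34 [-1.42, -1.26]. In ActD 115 were higher (8.81%, against 15.4%) and 685 lower (52.5%, against 50.1%), with a median of -1.08 [-1.17, -0.989]. Relative to the median gene these are -0.156 and -0.0701. After centring on that gene, in DRB 209 domain genes were higher (16.0%, against 24.9% of all genes) and 355 lower (27.2%, against 26.4%). In ActD 288 were then higher (22.1%, against 30.1%) and 384 lower (29.4%, against 31.6%). Scaled without the mitochondrial, ribosomal RNA and polymerase III genes, 117 were higher in DRB (8.96%, against 16.0%) and 525 lower (40.2%, against 42.3%), and in ActD 164 were higher (12.6%, against 20%) and 562 lower (43%, against 45.5%). Domain genes were thus higher less often than all genes under each of these scalings, whereas their excess of lower calls turned with the scaling. Genes in peaks of 2000 bp to under 4000 bp had medians of -1.38 and -1.06, with 3.55% higher in DRB and 12.0% in ActD before centring. Genes with a start in no peak were higher in 19.3% and 18.1%. In medians and in higher calls in DRB the domain genes thus stood close to genes in narrower peaks.

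Among protein-coding genes in domains the DRB ratio rose with gene length, except that genes up to 5 kb stood above the next class. Those up to 5 kb had a median of -1.27 and those of 5 to 10 kb -1.84. Longer ones were at -1.73 up to 20000 bp, -1.57 up to 50000 bp, -1.23 up to 100000 bp and -0.657 above that. In the 2000 bp to under 4000 bp class the medians were -1.53, -1.8, -1.92, -1.55, -1.28 and -0.533 in the same order. In ActD they were -0.646, -0.777, -0.77, -1.12, -1.3 and -1.33 in domains. The narrower class had -0.0305, -0.585, -0.968, -1.2, -1.38 and -1.3. The coverage of a domain and the ratio of its gene were nearly unrelated over 531 single-gene domains (Spearman's rho 0.0644 in DRB and -0.083 in ActD, as a description). The 79 genes in domains under 50% covered by DRB had a median of -1.4 and the other 452 one of -1.26. For the 76 long non-coding RNA genes the ActD median was -0.544 [-1.15, 0.118]. Of these, 22 were higher (28.9%, against 15.4% of all genes) and 32 lower (42.1%, against 50.1%).

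Histone genes in the domains stood apart from the other lists in DRB. Of 24 past the filter 15 were higher and 3 lower in DRB (median 1.14), where 9.1% of all genes were higher and 54.7% lower. In ActD 2 were higher and 13 lower (median -1.5), where 15.4% of all genes were higher and 50.1% lower. The lower calls in ActD were thus near the share of all genes. After centring on the median gene the DRB median was 2.33 (21 higher, 1 lower) and the ActD median -0.49 (6 and 8). Members outside domains had a like DRB median, 1.46, with 8 of 13 higher. H1-2, a linker histone gene, had 735 TPM in DMSO, 1320 in DRB and 86.2 in ActD, log2 ratios of 1.02 and -2.89. H2AC17, the highest of these 24 in DMSO, had 4080, 5900 and 697 TPM. In nascent RNA of untreated cells it had 12.6 TPM, against 48.8 for H1-2. H2BC21 had 5889 counts in DMSO, 29695 in DRB and 5832 in ActD, and H2AC13 825, 4448 and 65. H2BC15 went the other way in DRB, from 2367 to 783 counts, as did H3C4, from 259 to 99, and H4C12 had 71 counts in DMSO and 0 in DRB. Reads of these near-identical genes may have been split between copies. Their 13 domains were covered to at least 50% in all 13 by DRB and by ActD, in 1 by siNTC and in 2 by siMyc. Over all domains these shares were 85.1%, 93.1%, 46.3% and 10.9%.

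The 19 splicing factor genes in domains were lower in 11 cases and higher in none in DRB, where 54.7% of all genes were lower. Their median was -1.25, or -0.06 after centring, with 2 lower and 1 higher. In ActD 7 were lower and 0 higher, with a median of -0.80, against 50.1% of all genes lower. After centring this turned to 0.21, with 0 lower and 4 higher. HNRNPA2B1, with 978 TPM in DMSO, 887 in DRB and 459 in ActD, stayed within 2-fold in both. SRSF7 had 2306 counts in DMSO, 121 in DRB and 1460 in ActD, and TRA2B 2752, 516 and 1941. DDX17, an RNA helicase gene, had 2462, 1865 and 4301. All 19 domains were covered by ActD, 11 by DRB, 5 by siNTC and 0 by siMyc, with a median DRB coverage of 50.5% against 73.2% over all domains. The covered shares over all domains were 93.1%, 85.1%, 46.3% and 10.9% in the same order.

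Of 17 chromatin modifier genes 10 were lower and 0 higher in DRB (median -1.17), near the 54.7% of all genes that were lower. After centring 1 was lower and 3 were higher, with a median of 0.01. In ActD 11 were lower and 0 higher (median -1.89), against 50.1% of all genes lower, and after centring 6 and 0 (median -0.88). KDM2A, a histone demethylase gene, went from 1775 counts to 776 in DRB and 75 in ActD. EP300, a histone acetyltransferase gene, went from 3780 to 1198 and 882, while CHD2 had 2664, 2594 and 1675. In the H2A.Z, SRCAP and TIP60 list 4 of 8 were lower in DRB and 5 in ActD, with none higher, around the 54.7% and 50.1% of all genes that were lower. After centring these became 2 lower and 1 higher in DRB, and 2 and 2 in ActD. H2AZ1 had 885 counts in DMSO, 557 in DRB and 929 in ActD, and H2AZ2 1278, 290 and 2096. YEATS4, a reader subunit shared by both complexes, had 580, 101 and 145, and EPC1, a TIP60 scaffold subunit, 274, 65 and 5.

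Immediate early genes, which are switched on by signals without new protein, divided most. In DRB 6 of 8 were lower and 1 higher (median -3.01, or -1.82 centred), and in ActD 4 were higher and 3 lower (median 0.68, or 1.69 centred). Over all genes 9.1% were higher and 54.7% lower in DRB, and 15.4% and 50.1% in ActD. The 17 members outside domains divided alike, with 13 lower in DRB (median -1.72) and 8 higher and 7 lower in ActD (median 0.544). PPP1R15A, a stress-induced phosphatase subunit gene, had 855 counts in DMSO, 139 in DRB and 7196 in ActD. JUNB, an AP-1 subunit gene, had 363, 489 and 2619, and IER2 109, 522 and 280. ZFP36, which encodes an RNA decay factor, had 129, 6 and 2, and DUSP6, a phosphatase gene of the ERK pathway, 227, 3 and 49. The PPP1R15A and JUNB domains had no siNTC or siMyc peak and were covered to 72.3% and 65.2% in ActD.

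The calls of the remaining lists stand against 9.1% of all genes higher and 54.7% lower in DRB, and 15.4% and 50.1% in ActD. Among these lists, all 9 G2 and mitosis genes in domains were lower in DRB (median -2.2, or -1.02 centred with 5 lower), as were 23 of 25 outside domains. NUSAP1, a spindle protein gene, had 4522 counts in DMSO, 1293 in DRB and 1284 in ActD. Among 6 snoRNA host genes, whose introns carry small nucleolar RNAs, 3 were higher and 1 lower in ActD (median 1.23), and 4 were lower in DRB (median -1.02, turning to 0.17 after centring). GAS5 had 501 counts in DMSO and 2239 in ActD, and SNHG1 450 and 1244. For 7 ribosomal protein genes the ActD median was 0.49 with 2 higher, or 1.5 with 6 higher after centring. That in DRB was -0.66 with 3 lower, turning to 0.52 with 2 higher after centring. RPS3A, of the small subunit, had 5753, 5464 and 11324 counts. The 3 myeloid transcription factors differed from each other. GFI1 had 1951 counts in DMSO, 165 in DRB and 579 in ActD, ZEB2 3721, 3984 and 793, and ETV6 894, 1963 and 564.

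Genes of the widest and least covered domains showed no common direction. CDKN1B had 277 counts in DMSO, 5 in DRB and 506 in ActD, and IGF2BP3 304, 705 and 5. BCLAF1, a splicing-linked nuclear protein gene, had 8128, 2647 and 3402. ETF1, without a DRB peak, had 529, 192 and 14 counts, and TRIB3, without an ActD peak, 114, 148 and 0. PARVB, also without an ActD peak, had 228, 212 and 461.

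**Figure D5:**
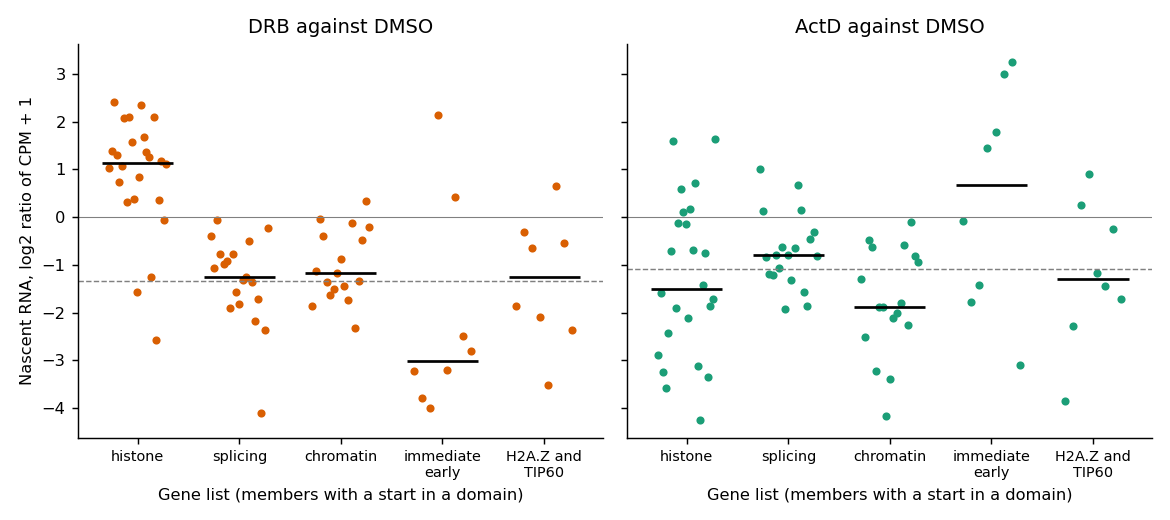
Log2 ratios of nascent CPM + 1 (y) of genes with a start in a domain, by list (x), for DRB (left) and ActD (right) against DMSO. Points are genes, black bars list medians and the dashed line the median of all domain genes (-1.34 and -1.08). Histone genes lie mostly above 0 in DRB, at a median of 1.14, and immediate early genes spread widest in ActD.

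Over all domain genes, listed or not, the lowest DRB ratios among those with at least 100 summed counts were those of CKS2, FBXL5, CXCR4, NFYA, PPP1R10 and YY1. CKS2, a cyclin-dependent kinase subunit gene, had 1716 counts in DMSO, 20 in DRB and 1010 in ActD. The chemokine receptor gene CXCR4 had 1109, 15 and 343, and NFYA, which encodes a subunit of the CCAAT-binding factor, 1269, 24 and 602. XBP1, a factor of the unfolded protein response, was low in both, with 893, 17 and 67. The highest in DRB was RNF32, with 13, 482 and 3 counts. ANXA2R, in the run on chromosome 5, had 1 count in DMSO, 142 in DRB and 338 in ActD. In ActD the lowest were led by the read-through gene FMC1-LUC7L2 (1027 counts in DMSO and 0 in ActD) and ZFP91-CNTF (1122 and 5), whose reads may be shared with their component genes, and by TXNL1 (1513 and 15) and DACH1 (789 and 4). DDIT3, a stress-response factor gene, had 48 counts in DMSO, 1 in DRB and 854 in ActD, and TBCC 152, 82 and 1677. Some antisense genes were among the 10 highest in ActD, with 0 counts in DMSO against 204 for PAN3-AS1 and 272 against 2569 for THAP9-AS1. PAN3-AS1, with 1 count in DRB, passed the filter only through ActD. Other antisense genes went down in ActD, from 134 counts to 2 for NOP14-AS1, 80 to 0 for ZNF516-AS1 and 319 to 114 for TSPOAP1-AS1. The sources used here do not say whether counting used the strand, so these and their sense partners cannot be told apart. The genes with the most nascent RNA in DMSO were PTMA (6350 TPM in DMSO, 4660 in DRB and 3820 in ActD) and MALAT1 (6120, 5910 and 1750). In nascent RNA of untreated cells PTMA had 94.3 TPM and MALAT1 749. The PTMA domain was covered to 14.2% in DRB against 78.2% in ActD.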

How the data were processed

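ChIP, RIP and nascent RNA libraries of HL-60 were used as deposited, 1 library per group, grouped by their titles and treatment labels. Per the submitters' processing notes the build was GRCh38 and the tools included Trim Galore, cutadapt, FastQC, STAR 2.5.2b and HOMER. The sources used here name neither the quantifier nor the control library of the peak calls. Peak lists are HOMER output for 1 library each, per the file headers, and carry a normalized tag count (a signal), a score, a fold over control (a ratio) and a p-value. No deposited peak had a fold under 4.0 or a p-value over 0.0001. A scale of 10000000 tags, HOMER's default, was assumed where lists were compared. The gene tables hold expected counts, TPM and FPKM, per the file headers. Deposited expected counts were scaled to CPM, the deposited TPM gave levels, and the deposited FPKM an alternative.

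The members and the 21 gene lists were chosen with earlier results of these data known. Domains were peaks of at least 4000 bp, and coverage was the share of a domain's bases in another list's peaks. A gene was in a domain if a start in the RefSeq table (26246 genes, GRCh38.p14) lay inside it, and 18274 of these matched a row of the gene tables, which use some older symbols. Genes were kept at a mean of 1 CPM and 20 summed counts, and ratios used a pseudocount of 1 CPM and a 2-fold call. Interval overlap and ratios were tested on simulated data. Domains named were the 10 widest, the 5 of highest tag count, the 5 least covered per list (ties by width) and the 3 on either side of the width limit. Genes named were those at these domains, the 10 highest and lowest ratios with at least 100 summed counts, the 5 highest TPM and up to 3 members per list by TPM. Other list members were named after their values were seen. With no replicates no p-value was computed, and intervals are exact binomial at 95%. Alternatives changed the width limit, joining of peaks, covering share, fold, number of peaks, gene assignment, pseudocount, filter and scaling. Python 3.11.15, pandas 2.3.3, numpy 2.4.6, scipy 1.17.1 and matplotlib 3.10.9 were used.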

Additional observations from a re-analysis of the deposited data

How the results depend on the processing

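No paired analysis was possible because each group had 1 library. Of 60 alternatives, 27 left a value within its interval, 1.5 times of a count or 5 points of a difference in coverage. The other 33 moved it. No value changed sign, but only the log2 ratios and the differences in coverage could, the rest being counts, shares or levels. Taking the same number of peaks left the siMyc list uncut, so its values there count among the 27 by construction. Medians of some gene lists, and the difference between domain genes and all genes in lower calls, did turn with the scaling, as given beside them. The number of domains was 3754 at a width of at least 3000 bp and 475 at 5000 bp, and genes with a start in one 4433 and 637. The covered share in DRB, ActD, siNTC and siMyc was 97.9%, 98.0%, 89.6% and 42.8% when 25% of bases sufficed, and 18.2%, 70.6%, 1.16% and 0.54% when 90% was asked for. With covering peaks of a fold of at least 8 it was 76.3%, 87.7%, 29.4% and 1.77%, and with the same number of peaks from each list 46.0%, 51.0% and 40.3% for DRB, ActD and siNTC. At a width of 3000 bp it was 88.7%, 91.2%, 54.3% and 13.2%, and at 5000 bp 78.5% in DRB and 38.9% in siNTC. Upstream less downstream coverage, which was not among the planned results, moved to 27.9 points in DRB with equal lists. At a fold of at least 8 it moved to 34.8 in siNTC and 4.77 in siMyc. These alternatives were chosen after seeing the data. The median nascent level was 24.8 TPM for domains of 5000 bp. Centring on the median gene moved the DRB and ActD medians of domain genes to -0.16 and -0.07, and scaling without mitochondrial, ribosomal RNA and polymerase III genes to -0.65 and -0.73. Leaving out libraries was not possible with 1 per group. Depth limits what is missing, since a domain outside another list's peaks may hold acH2A.Z below its threshold.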
